A study of Mus musculus with 30 samples.

Results

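The choroid plexus genes described here were Ttr, Kl, F5, Folr1, Kcne2, Kcnj13, Slc4a5, Clic6 and Otx2, 9 of the 18193 mouse genes that the array measured. They were chosen by name, with their values on the 6 brain arrays by day and the kidney values of Kl in view, to ask whether they moved in proportion to Ttr. Those values are therefore given as a description, with no test. All 9 genes were found by symbol and Entrez identifier, on 15 probe sets, the groups of short probes that each give 1 value per array.

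The mice were C57BL/6 males, 8 to 10 weeks old, and 4 tissues were taken: brain, heart, kidney and vessel. An osmotic pump delivered 1500 ng of angiotensin II, a vasoconstrictor peptide, per kg of body weight each minute for 1, 3 or 7 days. The day 0 groups received no angiotensin II, and the labels do not say whether these mice carried a pump. Brain had 2 arrays at each of days 0, 3 and 7, kidney 2 and heart 3 at each of days 0, 1, 3 and 7, and vessel 1 at each, 30 arrays in all, with replicates labelled as biological. The labels name no brain region or dissection.

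The choroid plexus is a folded epithelium inside the brain's ventricles that makes cerebrospinal fluid. Its cells pump ions and bicarbonate into the fluid, carry folate and hormones across, and secrete transthyretin, so that a few of its transcripts are among the most abundant in whole brain although the tissue is small. In bulk RNA, fewer cells of a type and less RNA per cell cannot be told apart.

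Otx2, the homeodomain transcription factor that choroid plexus epithelium needs for its development and upkeep, was the only regulator among the 9 genes, so the windows around their start sites were searched for the letters it is known to bind, TAATCC, on both strands. RefSeq windows (GRCm38.p6, 250 bases before to 50 after each start) were at hand for 6 of the 9 genes, 10 windows in all. The letters occurred in 1 of the 10 windows, against 7.06% of all 32851 windows of the same length. That window was 1 of 4 for Otx2 itself. A stretch of 100 bases around it, at chr14:48665260-48665359 on the minus strand, is shown because it is where the match lay. The capitals mark the match, GGATTA, the reverse complement of TAATCC, which begins 211 bases before the start.

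Otx2: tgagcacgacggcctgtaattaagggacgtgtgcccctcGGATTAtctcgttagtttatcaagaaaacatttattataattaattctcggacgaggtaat

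The match is a description of letters and not of a bound site. In the same build the 9 genes lay on 7 chromosomes, with Kcnj13 and F5 both on chromosome 1 and Kcne2 and Clic6 both on chromosome 16. Kcne2 (92292389 to 92298133) and Clic6 (92498147 to 92541241) were 200014 bases apart, with 11 annotated genes starting between them, 5 of them protein coding.

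The brain arrays differed in more than the day. Summed intensity of 8 cerebellar genes was 48660 and 22704 on the day 0 arrays, 4191 and 12407 at day 3, and 25180 and 7911 at day 7, whereas the sum of 8 neuronal genes lay between 42064 and 46104. Day 0 replicate 1 also carried pituitary genes (5 genes, 7483 against 129 to 968 on the other brain arrays) and liver genes (7 genes, 3141 against 182 to 287). In kidney, day 1 replicate 2 carried liver genes (41216 against 534 to 1087 on the other 7 kidney arrays). The liver list was chosen after its values had been seen. Array medians ran from 35.2 to 37.8 in intensity, on a scale whose highest value was 22424.

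All 9 genes were highest in an untreated brain, at day 0 replicate 1. Ttr, Folr1, Kcnj13, Slc4a5 and Otx2 were lowest at day 3 replicate 1, Kl, F5 and Clic6 at day 3 replicate 2, and Kcne2 at day 7 replicate 2. At day 3 both arrays lay below both day 0 arrays for 8 of the 9 genes, Otx2 being the exception. At day 7 they did so for 6 of 9, with Folr1, Otx2 and Clic6 overlapping, Clic6 on the probe set with the higher mean level only. Among all 14109 genes tested in brain, 21.4% were lower on both day 3 arrays and 24% on both day 7 arrays. Nothing is read from the genes' own counts, since these values chose them.

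Ttr encodes transthyretin, the carrier of thyroid hormone and retinol in plasma and cerebrospinal fluid. On its brightest probe set it had an intensity of 20010.1 and 19361 at day 0, 81.5 and 2106 at day 3, and 18697 and 898 at day 7. The day 3 arrays and day 7 replicate 2 were far below both day 0 arrays, and day 7 replicate 1 was close to them. The highest brain array was 246-fold above the lowest. On the log2(intensity + 16) scale the mean difference from day 0 was -5.44 at day 3 and -2.25 at day 7, with an SD between replicates of 2.54 over the 3 days. The replicates of each treated day lay further apart than the means of days 0 and 7.

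On the 3 arrays where it was high, this Ttr probe set was the second brightest of all 45101, so there was little room above it on the scale. A second probe set read 13295 and 12227 at day 0, 62.0 and 459 at day 3, and 9330 and 208 at day 7. It placed day 7 replicate 1 at 73.1% of the day 0 mean, where the brightest placed it at 95.0%. The other 2 probe sets gave 91.9% and 92.8%. All 4 put day 3 replicate 1 below 0.5% of day 0, at 0.290 to 0.486%.

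Kl encodes klotho, a membrane protein that serves as a co-receptor for the hormone FGF23 and is shed into plasma and cerebrospinal fluid. The intensity of its brighter probe set was 152 and 106 at day 0, 24.2 and 23.3 at day 3, and 57.7 and 42.5 at day 7. Both day 3 arrays were lowest and alike, the day 7 arrays were intermediate, and the days did not overlap. The mean differences from day 0 were -1.85 and -1.13 on the log2 scale, with a replicate SD of 0.23. The dimmer Kl probe set read 17.6 to 22.4 on all 6 brain arrays, against 19.0 to 29.0 in heart, and showed no such order.

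F5, coagulation factor V, is a secreted cofactor of thrombin formation made mainly in liver. Its brighter probe set read 135 and 120 at day 0, 19.1 and 13.9 at day 3, and 53.5 and 14.3 at day 7. The untreated brains were highest, day 7 replicate 1 was intermediate and the other 3 arrays were low. The differences from day 0 were -2.14 and -1.64, with a replicate SD of 0.50. The second probe set read 40.1, 37.9, 13.7, 17.3, 35.2 and 17.2 in the same order of arrays.

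Folr1, the folate receptor with which the choroid plexus takes folate into cerebrospinal fluid, read 213 and 80.5 at day 0, 25.4 and 30.04 at day 3, and 103 and 42.3 at day 7. Both day 3 arrays were lowest, and day 7 replicate 1 lay above day 0 replicate 2. The differences from day 0 were -1.77 and -0.83, with a replicate SD of 0.66.

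Kcne2 encodes an accessory subunit of potassium channels that sits in the apical membrane of choroid plexus epithelium. It read 126 and 86.5 at day 0, 7.29 and 8.81 at day 3, and 48.3 and 6.95 at day 7. The array of day 7 replicate 1 again stood between the untreated brains and the other 3, which were alike. The differences from day 0 were -2.33 and -1.65, with a replicate SD of 0.64.

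Kcnj13 encodes the inwardly rectifying potassium channel Kir7.1. It read 499 and 470.1 at day 0, 78.4 and 205 at day 3, and 269 and 101 at day 7. Its day 0 replicates were close together and each treated day had a higher and a lower array. The differences from day 0 were -1.79 and -1.45, with a replicate SD of 0.73.

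Slc4a5 encodes a sodium bicarbonate cotransporter of the apical membrane. It did not pass the filter on low values in brain, where it read 29.8 and 20.5 at day 0, 8.84 and 12.1 at day 3, and 14.0 and 9.004 at day 7. All 4 treated arrays lay below both untreated ones. The differences were -0.63 and -0.58, with a replicate SD of 0.19, on a scale that compresses values this near the added 16.

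Clic6, a member of the chloride intracellular channel family, had probe sets that differed in how much they read outside the brain. One, dim in heart, read 314 and 220.3 at day 0, 99.3 and 51.2 at day 3, and 161 and 85.9 at day 7, and at most 9.62 in heart. The other read 227, 93.9, 80.6, 65.8, 97.8 and 83.3 in the same order of arrays, and 41.2 to 69.0 in heart. It had the higher mean level over all arrays and so stood for the gene in the fits. The differences from day 0 were -1.67 and -1.05 on the first probe set and -0.88 and -0.62 on the second.

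Otx2 read 96.2 and 46.3 at day 0, 6.46 and 62.0 at day 3, and 71.8 and 10.5 at day 7. Each treated day had 1 array at or near the untreated level and 1 far below it, so that the days overlapped. The differences from day 0 were -0.998 and -0.79, with a replicate SD of 1.08, the largest among the 9 genes after Ttr.

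**Figure D1:**
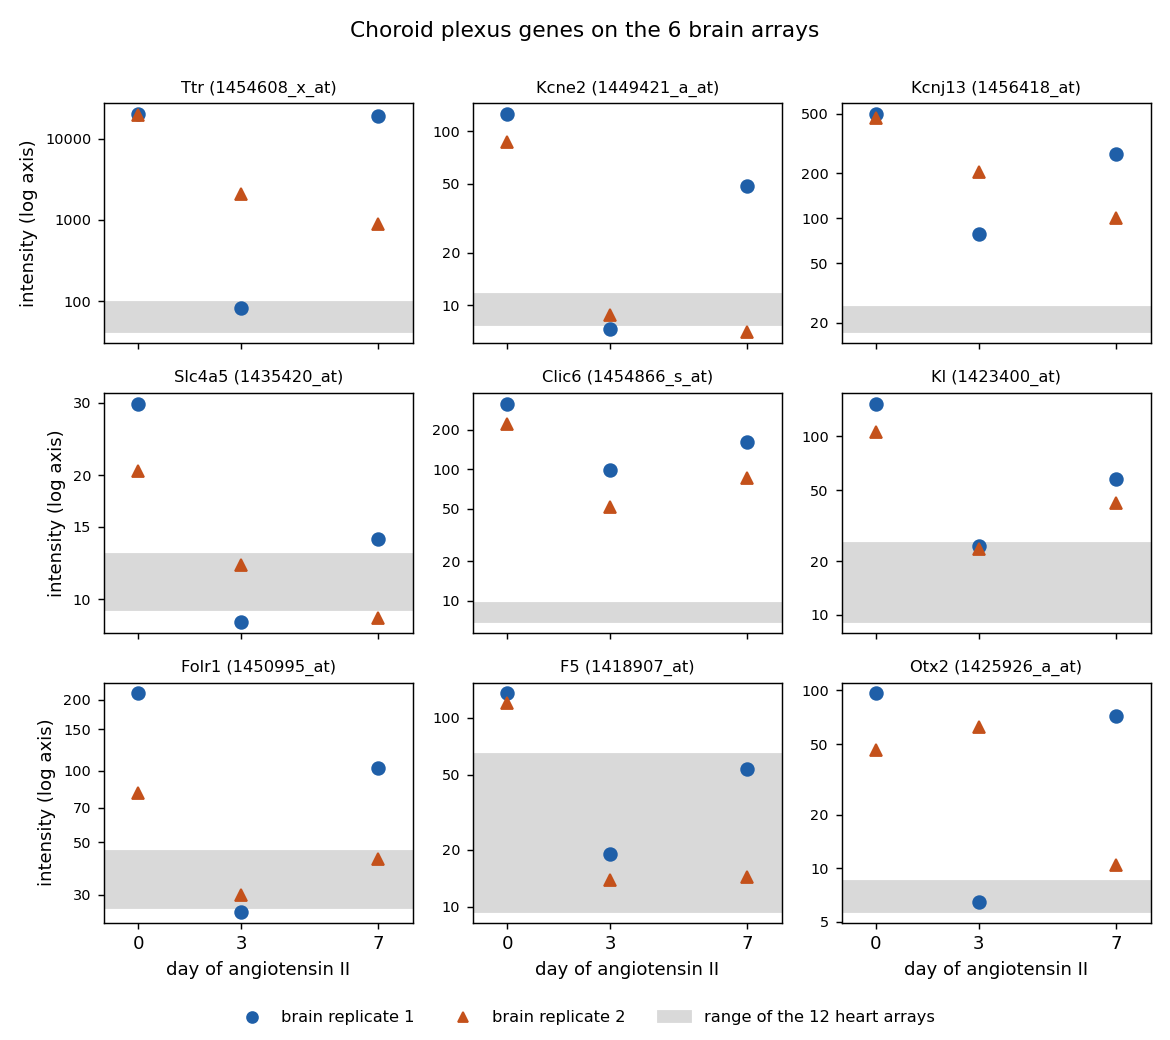
Intensity of the 9 genes (log axis, 1 probe set per panel) on the 6 brain arrays against the day of angiotensin II. Circles are replicate 1, triangles replicate 2, and the grey band spans the 12 heart arrays. Day 0 is highest in every panel, and for Otx2 the upper array of days 3 and 7 lies within or near the day 0 pair.

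The genes were ordered across the arrays much as Ttr was, but their shares of day 0 differed from those of Ttr. Of the 15 pairs of brain arrays, Slc4a5 and Kcnj13 ordered all 15 as Ttr did, Kcne2 14, Kl, Folr1 and Otx2 13 each, and F5 and Clic6 12 each. In all this was 89.2% of 120 pairs. At day 3 and at day 7 replicate 2, Slc4a5, Kcne2, F5 and Folr1 did not exceed all heart arrays, nor did Kl at day 3. Some of the pairs counted therefore order values near background. A gene tested in brain had a median of 8 pairs in Ttr's order, and 12.1% of such genes had 13 or more. These values chose the genes and the arrays are shared by all of them, so the shares are a description.

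As a share of each gene's own day 0 mean, the arrays did not separate into a single factor. At day 3 replicate 1, Ttr was at 0.414%, whereas the other 8 genes lay between 6.87% (Kcne2) and 37.1% (Clic6), with a median of 16.7%. The Clic6 share is that of its probe set that is dim in heart, and the Clic6 probe set used in the fits was at 50.2%. At day 3 replicate 2, Ttr was at 10.7% and the others at a median of 19.8%. On that array Kcne2 was at 8.30% and F5 at 10.9%, Kl at 18.1% and Folr1 at 20.5%, but Kcnj13 at 42.3% and Otx2 at 87.1%.

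At day 7 replicate 1, Ttr was at 95.0%, or 73.1% on the second probe set described above. The other genes were lower on that array, at a median of 55.5%, with F5 at 42.0%, Kl at 44.7%, Kcne2 at 45.5%, Folr1 at 70.3% and Otx2 at 101%. At day 7 replicate 2, Ttr was at 4.56% and the others between 6.55% (Kcne2) and 35.8% (Slc4a5). On its brightest probe set Ttr therefore lay below the other genes on the 3 arrays where it was low, Kcne2 at day 3 replicate 2 being the exception. On its second probe set Ttr was at 3.60% on that array, below Kcne2 as well. At day 7 replicate 1 Ttr lay above all but Otx2, with F5 taken on its brighter probe set. The second F5 probe set was at 90.3% there, above the 73.1% of the second Ttr probe set.

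**Figure D2:**
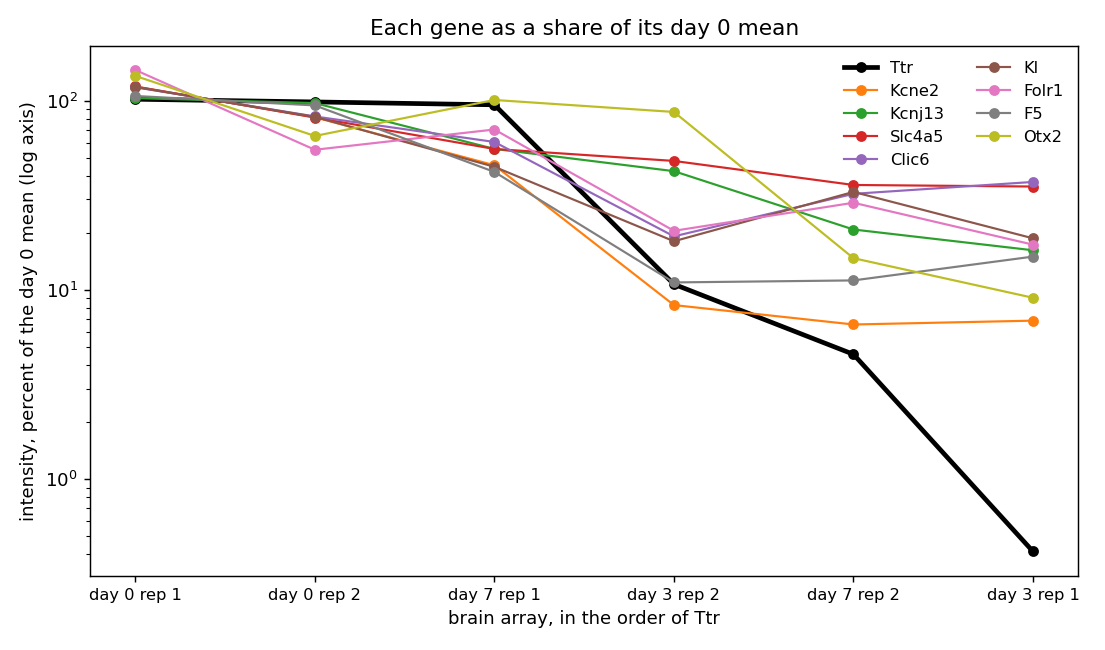
Intensity of each gene as a percent of its mean over the 2 day 0 brain arrays (log axis), with the 6 brain arrays placed in the order of Ttr. Ttr falls to 0.414% at day 3 replicate 1 while the other 8 genes end between 6.87% and 37.1%, and Otx2 stays at 87.1% on day 3 replicate 2. Clic6 is plotted on its probe set that is dim in heart.

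The level that each probe set read in heart served as a reference for a tissue without choroid plexus. At day 3 replicate 1 only Clic6 and Kcnj13 of the 9 genes exceeded all 12 heart arrays, and Ttr, at 81.5, was within the heart range, which reached 96.5. At day 3 replicate 2, 4 genes did so (Ttr, Clic6, Otx2 and Kcnj13), at day 7 replicate 2, 5 (those and Kl), at day 7 replicate 1, 8 (all but F5), and on both day 0 arrays all 9. F5 read 53.5 at day 7 replicate 1, above its heart median of 16.3 but below heart arrays that read 55.1 and 64.4.

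With each gene's heart median subtracted, a choice made after the data were seen, the genes came closer to Ttr on the low arrays. The median of the other 8 was then 1.32% of day 0 at day 3 replicate 1, where Ttr was at 0.0736%, and 9.71% at day 3 replicate 2, where Ttr was at 10.4%. It was 4.13% at day 7 replicate 2, where Ttr was at 4.23%. At day 7 replicate 1 the other genes stayed lower, at 47.0% against 95.0%. These Ttr values are those of its brightest probe set. The second probe set gave 2.99% at day 3 replicate 2, 1.01% at day 7 replicate 2 and 72.9% at day 7 replicate 1. The remaining Ttr probe sets gave 7.88% and 8.63%, 3.76% and 2.76%, and 91.9% and 92.8% on those arrays. How close the genes came to Ttr thus depended on the Ttr probe set.

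The genes still differed from one another after the subtraction. Clic6 remained at 35.1% and Kcnj13 at 12.4% at day 3 replicate 1. The Clic6 probe set used in the fits, which heart also reads, was at 19.4% there and at 4.54% at day 3 replicate 2. At day 3 replicate 2, Otx2 was at 85.8%, Kcnj13 at 39.8% and Clic6 at 16.5%, whereas Kcne2, Folr1 and F5 were at or just below the heart median. At day 7 replicate 2, Clic6 was at 29.9%, Kl at 23.5% and Kcnj13 at 17.3%, with Folr1 at 1.93% and Kcne2, F5 and Slc4a5 below the heart median. Heart has its own expression of some of these genes, and its level stands in for the background of brain only as an approximation.

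Most other transcripts of the choroid plexus also had lower means at days 3 and 7. Of 41 listed genes that are not among the 9, 37 were tested in brain and none passed an adjusted p of 0.05 in limma in any of the 3 comparisons of brain days, where 0% of all genes passed. At day 3, 32 of the 37 were lower on average than at day 0, with a median log2 difference of -0.37 against -0.02 over all genes tested. Unadjusted, 13 were lower and 1 higher at p under 0.05, which 7.38% of all genes tested reached in either direction. At day 7, 29 of 37 were lower, with a median of -0.30 against -0.04, and 8 were lower and 1 higher unadjusted (7.13% of all genes).

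By role, at day 3 the difference was below 0 for 11 of 12 genes of ion and water transport (median -0.30), 12 of 12 of epithelial structure (-0.47), 4 of 6 of secreted factors and receptors (-0.30) and 5 of 7 of solute and metal transport (-0.06). Calml4, a calmodulin-like protein, had the widest range and read 244 and 101 at day 0, 10.1 and 46.9 at day 3, and 115 and 63.4 at day 7. Cldn2, a tight junction claudin that makes the epithelium leaky to sodium and water, read 138 and 59.0, then 23.9 and 20.1, then 39.5 and 34.2. Sostdc1, a secreted inhibitor of BMP and Wnt signalling, read 192 and 149, then 42.8 and 53.8, then 123 and 53.8. For Cldn2 and Sostdc1 all 4 treated arrays were below both untreated ones, and for Calml4 day 7 replicate 1 lay between them. Of all genes tested in brain, 21.4% were lower on both day 3 arrays and 24% on both day 7 arrays.

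Trpm3, a calcium-permeable channel, read 693, 362, 183, 326, 441 and 204 in the order of arrays used above. Steap1, a membrane protein of the Steap family, read 86.2, 72.2, 16.7, 20.9, 38.1 and 22.7. Aqp1, the apical water channel of the epithelium, read 62.8, 30.5, 12.8, 10.3, 19.3 and 26.1. The other genes named by their range were Slc4a2, the basolateral anion exchanger (302 at its highest and 102 at its lowest), and Car2, carbonic anhydrase II (3422 and 1308), which is also strongly expressed in oligodendrocytes. Htr2c, the serotonin receptor abundant in both choroid plexus and neurons, read 878 and 859, then 1521 and 1880, then 1229 and 1288. It was higher on all 4 treated arrays than on both untreated ones. Of all genes tested in brain, 15.4% were higher on both day 3 arrays and 16.3% on both day 7 arrays.

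In an alternative fit that pooled the spread over the 26 arrays of brain, heart and kidney, 8 of the 37 fell and 1 rose at day 3, where 2.04% of all genes fell and 0.773% rose. The 8 were Aqp1, Calml4, Cldn2, Krt18, Slc13a4, Sostdc1, Steap1 and Vamp8, and the 1 was Htr2c. At day 7, 3 fell (0.574% of all genes) and 1 rose (0.617%) in that fit. Both fits use the same brain values and differ in the spread they assume. In the pooled fit the spread of a gene is shared with heart and kidney. It can be too small for a gene whose brain replicates lay further apart than those of the other tissues.

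None of the 10 genes most like Ttr over the brain arrays was on the choroid plexus lists, which do not hold every gene of that tissue. The 9 genes themselves were left out of this search. The cut on range also left out the listed gene Krt8, which ordered all 15 pairs as Ttr did but had a range of 0.95. Among 1717 other genes with a range of at least 1 on the log2 scale, the 10 with the highest Pearson correlation with Ttr over the 6 arrays were Zic1 (0.98), Zic2, Sbk1, Pcp2, Gabra6, Cbln3, Neurod1, Car8, Plch1 and Sgms2 (0.96). All 10 values rest on the same 6 arrays. Of these, Zic1, Pcp2, Gabra6, Cbln3 and Car8 were on the list of cerebellar genes. Gabra6, a GABA receptor subunit of cerebellar granule cells, read 6708 and 2818 at day 0, 8.70 and 907 at day 3, and 2864 and 507 at day 7. Pcp2, a Purkinje cell protein, read 8211 and 3070 at day 0, 26.4 and 1307 at day 3, and 3291 and 467 at day 7.

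Those values were high and low on the same arrays as Ttr. All 8 cerebellar genes had a lower mean at days 3 and 7 than at day 0, with median log2 differences of -2.98 and -1.35, and none passed limma's adjusted test (0% of all genes). Unadjusted, 4 of the 8 had p under 0.05 at day 3 (7.38% of all genes) and 0 at day 7 (7.13%). In the fit over 26 arrays 7 of the 8 fell at day 3, where 2.04% of all genes fell, and 0 at day 7. That fit shares its spread with heart and kidney. Within brain the SE of the day 3 difference was 1.81 for Gabra6 and 1.80 for Pcp2. Their sum was lowest at day 3 replicate 1, the array where Ttr was lowest, and next lowest at day 7 replicate 2. The part of tissue content in the values of the 9 choroid plexus genes was not tested.

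Lists for other cells of the brain differed in how they followed Ttr. All 8 endothelial genes had lower means at days 3 and 7 than at day 0, with median log2 differences of -0.37 and -0.39 and a median of 11.5 pairs in Ttr's order. The 7 astrocyte genes had medians of -0.35 and -0.34 and 12 pairs, with 4 of the 7 lower on each day. These medians were of the size of those of the 37 listed choroid plexus genes, which had a median of 11 pairs in Ttr's order. Ependymal cilia genes, from the cells that line the ventricles, summed to 632 and 422 at day 0, 390 and 731 at day 3, and 960 and 569 at day 7. That sum was higher on day 3 replicate 2 than on both day 0 arrays. Hypothalamic genes summed to 1206 and 2374, then 4124 and 2026, then 6263 and 7705, highest at day 7, where Pmch, the precursor of melanin-concentrating hormone, read 2369 and 2182 against 22.5 and 32.1 at day 0. Oligodendrocyte genes were highest on day 0 replicate 1 (27083) and day 3 replicate 2 (26295).

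Otx2 has a second source in brain, the midbrain, where it is also expressed. A list of 7 midbrain and brainstem genes, chosen after the values had been seen, summed to 480 and 154 at day 0, 205 and 1140 at day 3, and 734 and 228 at day 7. Day 3 replicate 2, where Otx2 stood at 87.1% of day 0 and Ttr at 10.7%, was the highest array for this list. There Tph2, the enzyme of serotonin synthesis in raphe neurons, read 325 against 5.70 to 50.4 on the other 5, and Slc6a3, the dopamine transporter, read 172. Day 7 replicate 1, the second highest for the list, read 256 for Slc6a3 and was at 101% of day 0 for Otx2. Whether these sources set the Otx2 values was not tested.

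**Figure D3:**
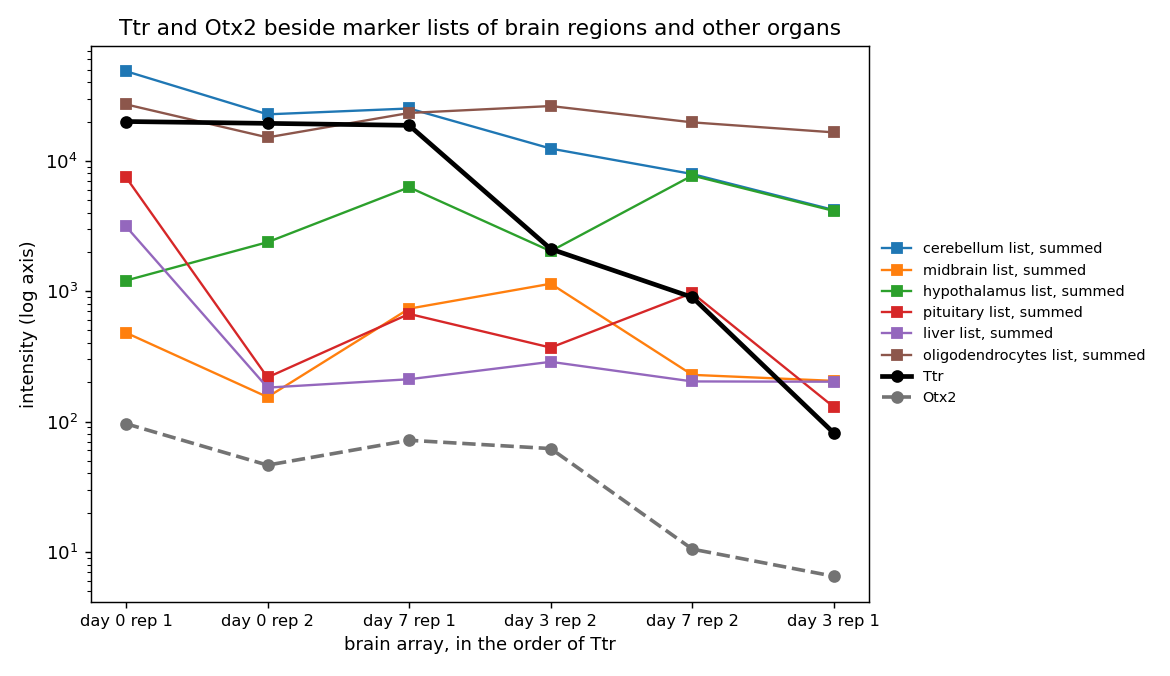
Intensity of Ttr and Otx2 and summed intensity of 6 marker lists (log axis), with the 6 brain arrays placed in the order of Ttr. The cerebellum list runs from 48660 on the array where Ttr is highest to 4191 where it is lowest, and the midbrain list peaks at 1140 on day 3 replicate 2, where Otx2 is at 62.0.

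Day 0 replicate 1, the array with pituitary and liver genes, was the highest of all 6 for every one of the 9 genes on the probe sets drawn above. Liver makes both Ttr and F5. Its albumin probe set (Alb) read 1686 on that array and 16.5 to 62.7 on the other 5. Day 0 replicate 2, with Alb at 20.8 and a pituitary sum of 218, exceeded all 4 treated arrays for Ttr, Kl, Kcne2, Clic6 (on the probe set dim in heart), F5, Slc4a5 and Kcnj13. It did not for Folr1, which was higher at day 7 replicate 1, or for Otx2, which was higher there and at day 3 replicate 2. Without day 0 replicate 1 the log2 difference at day 3 was -5.41 for Ttr, -1.62 for Kl, -2.09 for Kcne2, -2.07 for F5, -1.75 for Kcnj13, -1.15 for Folr1 and -0.57 for Otx2. For Clic6, on the probe set used in the fits, it went from -0.88 to -0.31 at day 3 and from -0.62 to -0.05 at day 7, and for Folr1 from -0.83 to -0.21 at day 7.

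Outside the brain, Ttr, Folr1, Kl, Kcnj13 and, on its brighter probe set, F5 read higher on every kidney array than on any heart array. On the second F5 probe set the tissues overlapped, with a lowest kidney value of 32.2 and a highest heart value of 36.97. The share of all genes with such a separation was not computed, so it is a description. Folr1 is the receptor with which the proximal tubule recovers folate, and kidney read 2781 to 4177 (median 3485, n = 8) against 25.4 to 213 in brain, without overlap. Over days 0, 3 and 7, the fitted brain minus kidney difference was -5.42 ± 0.18 on the log2 scale (SE). Each SE between tissues rests on a single spread per gene, pooled over brain, heart and kidney. The replicate SD in brain alone was 0.66 for Folr1 and 2.54 for Ttr, so these SEs can understate the spread of the brain arrays. Because brain values chose the genes, the differences between brain and the other tissues are a description, with no test. Kidney is the main site of Kl, which read 1036 to 1646 there (median 1419) and 23.3 to 152 in brain.

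Ttr read 4422 to 15204 in kidney (median 7756), a range that the 6 brain arrays straddled. Brain minus kidney was -1.12 ± 0.62. At day 0 alone it was 1.34, the opposite sign. Leaving out day 3 replicate 2 or day 7 replicate 1 of brain took the difference to -1.86 or -1.85, so single brain arrays moved this value.

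The difference of F5 was -1.23 ± 0.27, but -0.08 at day 0 alone. That of Kcnj13 was 1.86 ± 0.18 and that of Clic6, on the probe set used in the fits, 0.59 ± 0.14. The Clic6 probe set that is dim in heart read 51.2 to 314 in brain and 8.60 to 12.4 in kidney. Kcne2 and Otx2 passed the filter on low values through brain alone, so that a higher level there was built in. Their differences were 0.99 ± 0.15 and 1.35 ± 0.25. Of all 15035 genes tested in limma, 35.7% were called higher in brain than in kidney and 42.2% lower.

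Against heart, 39% of 14959 genes were called higher in brain and 45.1% lower. Of the genes that passed the filter in both tissues, the brain minus heart difference was 5.38 ± 0.56 for Ttr, 0.60 ± 0.13 for Clic6, 0.56 ± 0.16 for Folr1 and 0.77 ± 0.25 for F5. With the mean of its probe sets in place of the brighter one, that of F5 was 0.37. The Clic6 value is that of the probe set used in the fits. Its other probe set read 51.2 to 314 in brain and at most 9.62 in heart. Kl, Kcne2, Otx2 and Kcnj13 passed the filter through brain alone and differed by 1.27, 0.93, 1.29 and 2.67. Slc4a5 passed it in no tissue and was not fitted.

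**Figure D4:**
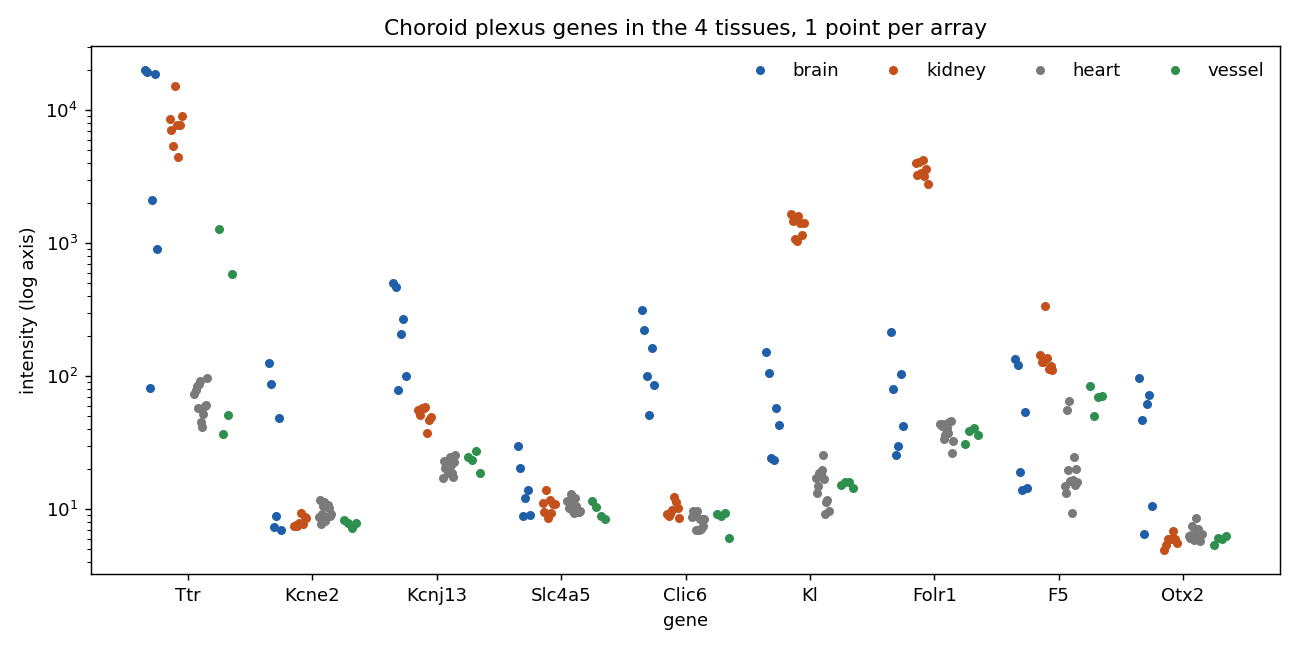
Intensity of the 9 genes on every array (log axis), 1 point per array, by tissue (6 brain, 8 kidney, 12 heart and 4 vessel arrays). Points are to be compared within a gene only. Folr1 and Kl are highest in kidney (2781 to 4177 and 1036 to 1646), and the brain values of Ttr spread from 81.5 to 20010.1 across those of kidney.

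In kidney none of the 5 genes tested passed limma's F test over the days of angiotensin II (0.0563% of 14214 genes passed), and none had an unadjusted p under 0.05 in it. Kl, described without a test, read 1646 and 1470.4 at day 0, 1079 and 1036 at day 1, 1608 and 1416 at day 3, and 1152 and 1423 at day 7. Both day 1 arrays and both day 7 arrays were below both day 0 arrays, as were 22.7% and 15.3% of all genes tested in kidney. The log2 differences were -0.55, -0.04 and -0.28, and the second Kl probe set gave -0.10, 0.04 and 0.06.

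Ttr and F5 were each highest in kidney on day 1 replicate 2, the array with liver genes. Ttr read 15204 there and at most 8965 on the other 7, and its second probe set read 5423 against at most 1803. F5 read 339 there against 110.4 to 144. The adjusted p of F5 in the F test was 0.62, and 0.030 when the other day 1 array was left out, so that the array with liver genes stood alone for that day. It was 0.84 when the array with liver genes was left out. Folr1 did not share this, at 3361 on that array.

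In heart none of the 4 genes tested passed the F test (6.55% of 14040 genes did), and 1 of the 4, Ttr, had an unadjusted p under 0.05, as did 3482 of the 14040. Ttr read 73.6, 78.1 and 84.3 at day 0 and 45.5, 41.4 and 51.9 at day 3, lower on all 3 arrays, with a log2 difference of -0.61 ± 0.17 and an adjusted p of 0.19. Its other 3 probe sets differed. One read 32.1 to 38.5 at day 0 and 23.8 to 26.7 at day 3, also lower on all 3 arrays, and another had means of 23.7 and 15.9. The remaining one read 56.3 to 76.1 at day 0 and 78.6 to 83.1 at day 3, the opposite order.

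Vessel had a single array per day and no test. Ttr read 1275 at day 0, 36.4 at day 1, 50.8 at day 3 and 581 at day 7. The liver list moved with it, at 2777, 299, 305 and 1205, and the part of liver RNA in these values was not tested. The other genes differed less on these 4 arrays, with Kl at 14.5 to 16.1, Folr1 at 30.9 to 40.6 and F5 at 49.8 to 84.0.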

How the data were processed

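Values were deposited as linear intensity, 1 number for each probe set on each array. Per the submitters' processing notes the tool was Affymetrix Expression Console, whose algorithm and settings were not given in the sources used here. Of 45101 probe sets, 64 were controls, 34945 carried 1 gene symbol, 932 several and 9160 none. Where a gene had several, the probe set brightest on average stood for it (18193 genes). Tests used log2(intensity + 16), which understates changes of dim genes. A gene entered a tissue's test when it exceeded the 40th percentile of an array on at least 2 arrays (3 in heart), which left 14109 genes in brain, 14214 in kidney and 14040 in heart.

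Group means were fitted per tissue in limma 3.58.1 (R 4.3.3). P-values were adjusted by Benjamini-Hochberg across the genes of each fit, at a threshold of 0.05. Tissues were compared in a joint fit of 26 arrays in 11 groups, over the means of days 0, 3 and 7, and the differences of the 9 genes are given without p-values because their brain values chose them. The number of arrays limits the precision. The code was tested on simulated data. Python 3.11.15, pandas 2.3.3, numpy 2.4.6 and matplotlib 3.10.9 made tables and figures.

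The genes and lists were chosen with earlier results of these data known. Named beside the 9 genes were choroid plexus genes called in brain or among the 8 with the widest range there, up to 3 genes of each other list by range, and the 10 genes most correlated with Ttr. Genes of the liver and midbrain lists, and those named for the joint fit, were picked after their values were seen. The alternatives tried are in the closing section.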

Additional observations from a re-analysis of the deposited data

How the results depend on the processing

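The limits are few arrays, a Ttr probe set near the top of the scale and dim values compressed by the added 16. The differences between brain days were 0 called genes with every alternative fitted within brain, except 1 at day 7 against day 0 when either day 3 array was left out (range 0 to 1). The joint fit called 397 at day 3, 168 at day 7 and 7 between them. Kidney calls over any day went from 8 to 1 with no filter, 1 with an added value of 1, 1 with quantile normalization, 1 with the mean of probe sets, 17 with trended and robust variances, 126 in the joint fit and 0 to 87 with 1 array left out. Heart calls went from 920 to 1680 in the joint fit and 51 to 2671 with 1 array left out. Replicate numbers were shared between days. Deviations of same-numbered arrays correlated between -0.64 and 0.48 in brain, -0.09 and 0.24 in kidney and -0.33 and 0.15 in heart. With 2 arrays per day in brain and kidney, both replicate numbers give the same value. These values therefore cannot show whether the numbers pair the arrays. With a replicate block, 2 genes were called in kidney, 455 in heart and 0 in brain. The reversed difference was Ttr in brain minus kidney, 1.34 at day 0 alone. The cause of these changes was not tested. The share of pairs in Ttr's order was 71.7% with quantile normalization, which ties Ttr on the 3 arrays where it ranks second, and 83.8 to 93.8% with 1 array left out. The tissue differences, given without a test, had 344 alternative values in all.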
